A study of Mus musculus with 79 samples.

Results

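Ribosome-bound mRNA of D1 receptor-expressing neurons was compared between mouse prefrontal cortex and ventral striatum. The comparison took every library whose labels name that cell type in either region, which gave 34 of the 79 libraries of the series, 19 from prefrontal cortex and 15 from ventral striatum, and all genes that passed a filter on low values. The mice carried a bacterial artificial chromosome in which the promoter of the dopamine D1a receptor gene drives a fusion of green fluorescent protein and ribosomal protein L10a, so that an antibody against the fluorescent protein pulls down ribosomes, with their mRNA, from cells that use that promoter. All mice of both groups were heterozygous for the transgene on a C57BL/6J background and received no treatment that the labels name. Tissue of 3 mice was pooled for each library, males and females together where the labels give every sex. They do not for prefrontal cortex replicates 16 and 18. The prefrontal cortex was dissected from slices, and the nucleus accumbens, the region labelled ventral striatum, was punched out of them. Ages were not given in the sources used here, and neither was whether libraries of different regions shared mice. Another group of 15 libraries, D1 neurons of the dorsal striatum from the same kind of mice, is used only to place the regional differences.

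Dopamine D1 receptors couple to stimulatory G proteins and raise cyclic AMP. In the striatum they mark a class of GABAergic projection neuron, the direct-pathway medium spiny neuron, which carries the peptides dynorphin and substance P and a cAMP cascade built on the olfactory-type G protein and on the phosphatase inhibitor DARPP-32. In the prefrontal cortex the same receptor is found at lower levels on glutamatergic pyramidal neurons of several layers and on some interneurons, so libraries under one receptor label can hold neurons of different lineages: cortical excitatory neurons arise from the dorsal telencephalon, striatal projection neurons from the ventral telencephalon.

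The markers of each region followed the labels. Slc17a7, which encodes the vesicular glutamate transporter of cortical excitatory neurons, read 136 to 437 CPM (median 237) in prefrontal cortex and 5.32 to 48.2 CPM (median 28) in ventral striatum. Six3, a homeobox transcription factor of the striatal lineage, read 0 to 7.48 CPM (median 0.417) in prefrontal cortex and 43.9 to 93.8 CPM (median 51.8) in ventral striatum. CPM values are reads that the authors scaled for library size. The groups did not overlap for either gene, but neither side was free of the other's marker. The 4 prefrontal cortex libraries highest for Six3 (replicates 1, 2, 6 and 19) read 5.23 to 7.48 CPM, against 0 to 2.19 CPM in the other 15, and the same 4 read highest for Ppp1r1b, the gene of DARPP-32 (56.7 to 139 CPM against 12.1 to 48.4 CPM). Results are therefore also given without these 4 libraries. In bulk libraries of this kind, fewer cells of a type and less RNA per cell cannot be told apart.

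Other features of the libraries bear on what follows. Reads in listed genes numbered 9.81 M to 25.1 M (mega) per library in prefrontal cortex and 10.5 M to 23.0 M in ventral striatum. Letter codes that begin the library names, whose meaning is not stated, mostly occurred in both groups: EM marks 15 of the 19 prefrontal and 11 of the 15 ventral striatum libraries, BdP 3 and 2 and JAG 1 each, while OdP marks 1 ventral striatum library and none from prefrontal cortex. The first principal component of the log values held 60.5% of the variance and separated the regions, and the second held 10.1% and separated EM libraries from the others within each region. In 5 libraries (prefrontal cortex replicates 8, 10 and 11, ventral striatum replicates 7 and 10) the 4 Y-linked genes counted held at most 10 reads, against medians of 697 and 472 reads in the 2 groups, although the labels give each of these pools a male, so these libraries go against their labels and counts without them are given too. Library names ran consecutively from a prefrontal to a ventral striatum library in 13 cases, each with the same number of labelled males in both. Among these were prefrontal replicate 8 with ventral replicate 7 and prefrontal replicate 11 with ventral replicate 10, all low in Y-linked reads. Prefrontal replicate 10, also low, was followed by ventral replicate 9, which was not.

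Markers of other cell types also moved with region. The summed level of 11 astrocyte markers was 247 to 579.7 CPM (median 418) in prefrontal cortex and 44.2 to 98.0 CPM (median 75.8) in ventral striatum, with no overlap, and none of the 11 was at 0 across a group. The sum of 27 GABA interneuron genes was 239.6 to 485 CPM against 109 to 153 CPM, also with no overlap. The sum of 15 oligodendrocyte lineage markers overlapped widely (57.1 to 132 CPM against 69.7 to 133 CPM; two-sided permutation p = 0.534, adjusted over 11 measures 0.587). The sum of 10 microglial markers was low and higher in prefrontal cortex (3.39 to 11.3 CPM against 2.60 to 5.28 CPM; permutation p = 1e-05, the smallest the resamples can give, adjusted 2.2e-05). That of 14 vascular and choroid markers was also higher, at 4.97 to 27.4 CPM against 3.67 to 9.56 CPM (permutation p = 0.00024, adjusted 0.00044). Of these 14 genes only Rgs5, a pericyte marker, and Kl, a choroid plexus marker, reached 1 CPM in at least 15 libraries, and they went opposite ways. Rgs5 was higher at a log2 difference of 2.13 (SE 0.16, adjusted p = 4.66e-15), and Kl was lower at -2.28 (SE 0.13, adjusted p = 1.17e-18). Transcripts of the 13 genes encoded by mitochondrial DNA summed to 18.3 to 342 CPM (median 50.1) in prefrontal cortex and 6.34 to 39.4 CPM (median 11.2) in ventral striatum. Prefrontal replicates 11, 12, 13, 14 and 16 held the highest of these sums, at 161 to 342 CPM. The same libraries held the highest oligodendrocyte sums of prefrontal cortex, at 94.7 to 132 CPM. What these levels contribute to any gene's difference was not tested.

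**Figure D1:**
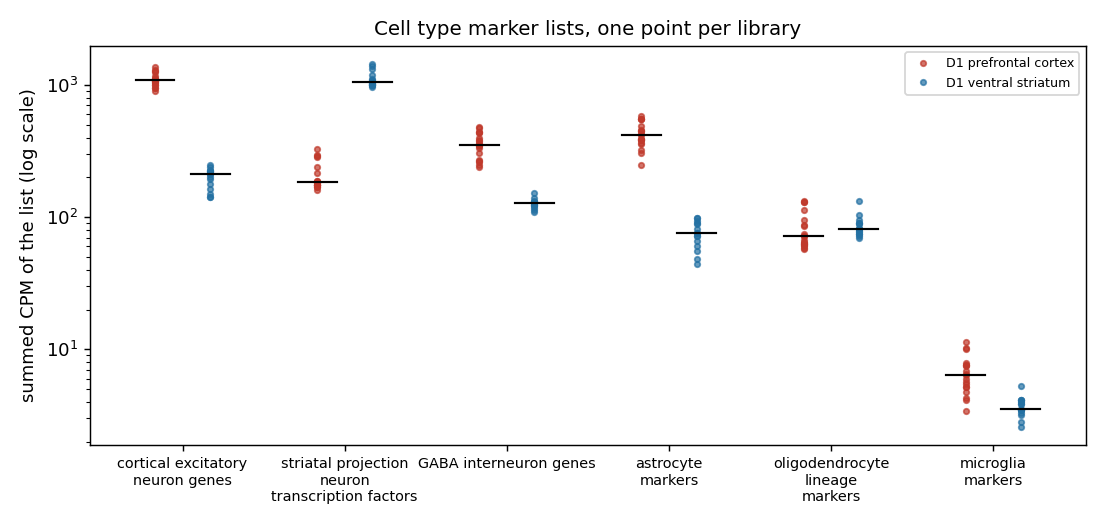
Summed CPM (log axis) of 6 marker lists, one point per library, in D1 neurons of prefrontal cortex (n = 19) and ventral striatum (n = 15), with black bars at the group medians. The cortical excitatory sums (897 to 1356 CPM in prefrontal cortex, 142 to 248 CPM in ventral striatum) and the striatal transcription factor sums (161 to 328 CPM and 966 to 1438 CPM) lie apart in opposite directions, astrocyte and interneuron sums lie higher in prefrontal cortex, and oligodendrocyte sums overlap.

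Most of the measured transcriptome differed between the regions. Among 11749 genes with at least 1 CPM in at least 15 libraries, 7381 (62.8%) differed between the regions at an adjusted p under 0.05 in limma, 3252 of them higher in prefrontal cortex (27.7%) and 4129 lower (35.1%). These shares over all genes tested are the background given beside the list counts. The excess of lower calls was smaller with median-ratio scaling, at 3539 higher and 3845 lower. It was smaller still in edgeR (3604 and 3683) and DESeq2 (3655 and 3698), which change the model as well as the scaling. A log2 difference throughout is prefrontal cortex minus ventral striatum on the log2(CPM + 0.5) scale, and its median over all genes tested was -0.07. A gene can pass the filter through the region where it is high, so counts and medians of the gene lists below describe the members that passed and no others. Differences of at least 2-fold were found for 1664 genes (14.2%), of which 1004 were higher (8.55%) and 660 lower (5.62%). For 1475 genes (12.6%) the lowest library of one region lay above the highest of the other, 763 with prefrontal cortex on top (6.49%) and 712 with ventral striatum on top (6.06%). Within the EM libraries alone 7471 genes differed, 1614 of them at least 2-fold. Without the 4 prefrontal libraries highest for Six3 the numbers were 7306 and 1686, and without the 5 libraries low in Y-linked reads they were 7216 and 1668. No gene called over all 34 libraries was called in the other direction in any of these 3 subsets.

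Among genes whose mean reached 5 CPM in the region with more, the 12 with the greatest excess in prefrontal cortex were Vip, Dkk3, Ccdc3, Pter, Myl4, Nrn1, Neurod6, Blnk, Cck, Bmp3, C1ql3 and Slc30a3. They included peptide genes, secreted factors and genes of cortical excitatory neurons. None of the 12 overlapped between regions (12.6% of all genes did not), but they were picked for their difference in these same libraries. Vip on chr10:5639193-5647617 (GRCm38), the vasoactive intestinal peptide gene of a class of cortical interneurons, read 16.2 to 62.1 CPM (median 25.2) in prefrontal cortex against 0.0165 to 1.37 CPM (median 0.496) in ventral striatum (log2 difference 4.70, SE 0.16, adjusted p = 3.09e-26). Nrn1, which encodes neuritin, a membrane-anchored protein induced by activity, read 43.6 to 107 CPM (median 84.1) in prefrontal cortex against 0.906 to 7.52 CPM (median 4.73) in ventral striatum (log2 difference 4.20, SE 0.17, adjusted p = 9.87e-24). Cck on chr9:121489824-121495694, the cholecystokinin gene, read 202 to 519 CPM (median 259) in prefrontal cortex against 4.78 to 37.5 CPM (median 18.6) in ventral striatum (log2 difference 4.04, SE 0.19, adjusted p = 1.14e-21). The 19 prefrontal libraries were all high for these 3 genes, and in ventral striatum Cck and Nrn1 were low rather than absent. Slc30a3, which encodes the zinc transporter of glutamatergic synaptic vesicles, read 11.1 to 25.7 CPM (median 19.9) in prefrontal cortex against 0 to 1.6 CPM (median 0.778) in ventral striatum (log2 difference 3.98, SE 0.15, adjusted p = 2.42e-24). C1ql3, a secreted C1q-like protein that bridges synaptic adhesion receptors, read 11.9 to 56.8 CPM (median 20.8) in prefrontal cortex against 0.24 to 2.8 CPM (median 1.02) in ventral striatum (log2 difference 4.01, SE 0.21, adjusted p = 3.16e-20).

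The 12 with the greatest deficit in prefrontal cortex were Dlk1, Prkch, Six3, Sh3rf2, Pdyn, Cd4, Gpr101, Lrrc10b, Spata13, Ppp1r1b, Carhsp1 and Gng7. Picked in the same way, they again did not overlap between regions. For Dlk1 on chr12:109452485-109463336, an imprinted gene for a transmembrane protein related to Notch ligands, the log2 difference was -6.26 (SE 0.17, adjusted p = 6.77e-29). Each ventral striatum library read at least 36.4 CPM for Dlk1 and no prefrontal library more than 1.71 CPM. Prkch on chr12:73584796-73778185, the gene of the eta isoform of protein kinase C, read 0.026 to 6.12 CPM (median 0.459) in prefrontal cortex against 57.7 to 78.7 CPM (median 69.6) in ventral striatum (log2 difference -5.91, SE 0.23, adjusted p = 4.43e-24). Gpr101, an orphan G protein-coupled receptor, read 0 to 0.412 CPM (median 0.029) in prefrontal cortex against 8.47 to 28.2 CPM (median 12) in ventral striatum (log2 difference -4.63, SE 0.12, adjusted p = 1.58e-29). Spata13, a guanine nucleotide exchange factor for small GTPases, read 0.421 to 5.98 CPM (median 2.04) in prefrontal cortex against 53.1 to 73 CPM (median 60) in ventral striatum (log2 difference -4.58, SE 0.16, adjusted p = 7.01e-26). Cd4, best known as the T-cell co-receptor, read 0.116 to 13.7 CPM (median 0.928) in prefrontal cortex against 35.9 to 92.2 CPM (median 57.2) in ventral striatum (log2 difference -4.76, SE 0.35, adjusted p = 1.52e-15). Its cell source in these libraries was not tested.

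**Figure D2:**
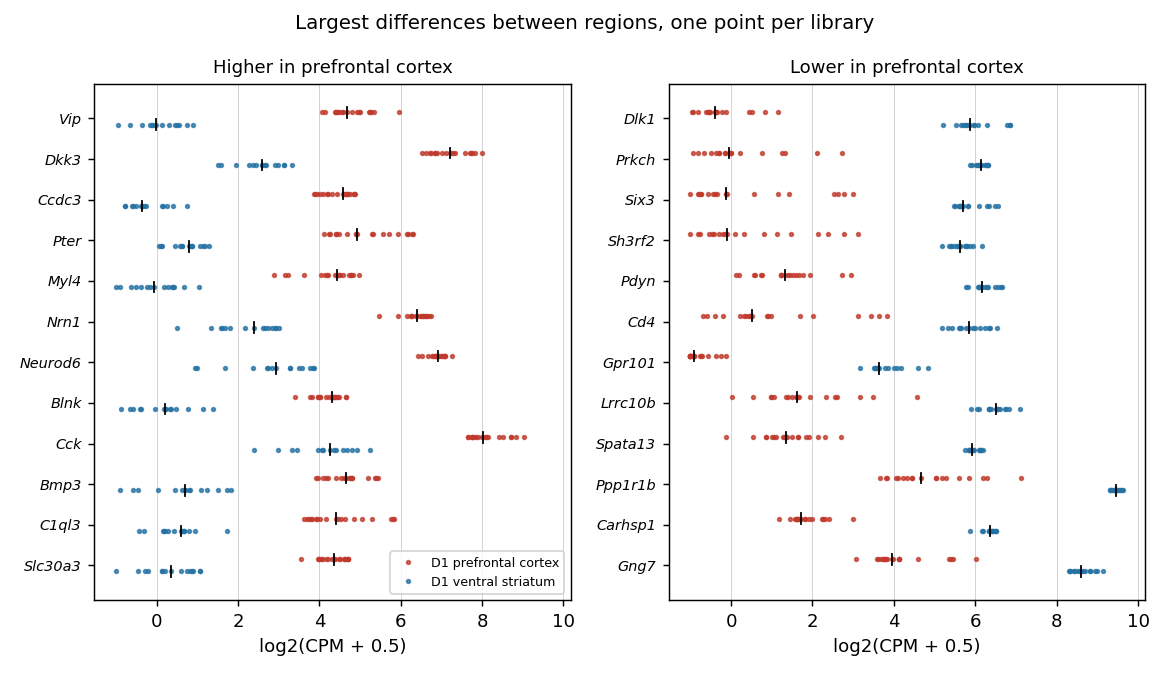
Level per library on the log2(CPM + 0.5) scale of the 12 genes with the greatest excess (left) and the 12 with the greatest deficit (right) in prefrontal cortex, one point per library, for D1 neurons of prefrontal cortex (n = 19) and ventral striatum (n = 15), with black ticks at the group medians. The points of the 2 regions do not overlap for any of the 24 genes, and for Six3, Cd4, Ppp1r1b and Gng7 a few prefrontal libraries lie above the rest of their group.

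Genes of the cortical excitatory lineage were higher in prefrontal cortex with 1 exception among those tested. Of the 14 genes on that list 12 were tested, 11 were higher and 0 lower (91.7% higher and 0% lower, background 27.7% and 35.1%). Their median log2 difference was 3.12 beside -0.07 over all genes. Neurod6, a basic helix-loop-helix factor of maturing pyramidal neurons, read 85.2 to 154 CPM (median 119.7) in prefrontal cortex against 1.43 to 14.2 CPM (median 7.21) in ventral striatum (log2 difference 4.07, SE 0.20, adjusted p = 1.01e-20). Tbr1 and Fezf2, factors of deep-layer corticofugal neurons, had log2 differences of 3.23 (SE 0.19, adjusted p = 1.40e-18) and 3.22 (SE 0.16, adjusted p = 7.46e-21), with no overlap for either. Mef2c, an activity-dependent factor present in both regions, differed less, at 1.55 (SE 0.06, adjusted p = 1.55e-23). The exception was Slc17a6, the second vesicular glutamate transporter, whose log2 difference of -0.05 did not pass the test.

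Of 21 markers used to tell cortical layers apart, 9 were higher in prefrontal cortex and 10 lower (42.9% higher and 47.6% lower, background 27.7% and 35.1%). Of the 8 for upper layers 2 were higher and 5 lower (25% and 62.5%). Of the 13 for deep layers 7 were higher and 5 lower (53.8% and 38.5%). Rorb, an orphan nuclear receptor of layer 4, read 16.1 to 50 CPM (median 35.4) in prefrontal cortex against 4.06 to 12 CPM (median 7.44) in ventral striatum (log2 difference 2.15, SE 0.14, adjusted p = 4.06e-17). Deptor, an mTOR inhibitor, and Nr4a2, an orphan nuclear receptor, were higher as well, at log2 differences of 2.12 and 2.54. The members that were lower included Calb1, the calcium buffer calbindin, which striatal projection neurons also express, at 11.3 to 24.6 CPM (median 16.2) in prefrontal cortex against 55.2 to 91.9 CPM (median 69.7) in ventral striatum (log2 difference -2.07, SE 0.10, adjusted p = 1.30e-21). Crym, a thyroid hormone-binding protein, was lower at -1.76 (SE 0.11, adjusted p = 2.70e-18), and Otof, the calcium sensor otoferlin, at -2.57 (SE 0.16, adjusted p = 3.88e-18). The regions did not overlap for 9 of the 21 layer markers (12.6% over all genes).

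The transcription factors of striatal projection neurons lay on the other side. Of 15 listed 13 passed the filter, and these were lower in prefrontal cortex (0% higher and 100% lower, background 27.7% and 35.1%). The difference was at least 2-fold for 12 of them (background 5.62% lower), and the median log2 difference was -3.48. Isl1, a LIM homeobox factor of the direct pathway, read 0 to 1.13 CPM (median 0.029) in prefrontal cortex against 9.22 to 16.1 CPM (median 13) in ventral striatum (log2 difference -4.40, SE 0.13, adjusted p = 4.14e-28). Ebf1, also a factor of the direct pathway, had a log2 difference of -3.77 (SE 0.21, adjusted p = 1.74e-19). Foxp2, a forkhead factor, read 6.08 to 19.9 CPM (median 10.1) in prefrontal cortex against 106 to 171 CPM (median 118) in ventral striatum (log2 difference -3.48, SE 0.14, adjusted p = 4.36e-24). Its relative Foxp1 was lower by less, with 67.2 to 146 CPM (median 81.8) in prefrontal cortex and 191 to 319 CPM (median 228) in ventral striatum and a log2 difference of -1.46 (SE 0.09, adjusted p = 2.33e-18). Bcl11b, which encodes Ctip2 and marks both striatal projection neurons and subcerebral pyramidal neurons, read 23.1 to 50.6 CPM (median 30.7) in prefrontal cortex against 143 to 233 CPM (median 166) in ventral striatum (log2 difference -2.37, SE 0.10, adjusted p = 3.83e-23). Both regions therefore held Foxp1 and Bcl11b well above 0, whereas Isl1 was near 0 in most prefrontal libraries.

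Retinoic acid signalling is a feature of striatal development, and 8 of 11 retinoid pathway genes tested were lower in prefrontal cortex and 3 higher (27.3% higher and 72.7% lower, background 27.7% and 35.1%). Of the receptors 4 of 5 were lower and 1 higher (20% higher and 80% lower, background 27.7% and 35.1%). Rarb, the beta receptor for retinoic acid, read 2.13 to 13.2 CPM (median 3.81) in prefrontal cortex against 62.2 to 78.4 CPM (median 71.1) in ventral striatum (log2 difference -3.95, SE 0.15, adjusted p = 1.16e-24). Rara, the alpha receptor and the one that was higher, read 11.8 to 27.9 CPM (median 17.7) in prefrontal cortex against 4.92 to 9.47 CPM (median 7.53) in ventral striatum (log2 difference 1.24, SE 0.10, adjusted p = 3.69e-14). Rxrg, the gamma subtype of the partner receptor, was lower at -3.57 (SE 0.20, adjusted p = 1.48e-19). Stra6, the membrane receptor for retinol-binding protein, was lower at -2.48 (SE 0.14, adjusted p = 4.15e-19), while Aldh1a1, a retinaldehyde dehydrogenase, was higher at 2.51 (SE 0.14, adjusted p = 2.68e-19).

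GABA interneuron genes were mostly higher in prefrontal cortex: 15 of 22 tested, against 3 lower (68.2% higher and 13.6% lower, background 27.7% and 35.1%), with a median log2 difference of 2.14. Htr3a, an ion channel receptor for serotonin on a class of cortical interneurons, read 5.26 to 14.7 CPM (median 7.92) in prefrontal cortex against 0 to 0.39 CPM (median 0.0965) in ventral striatum (log2 difference 3.77, SE 0.11, adjusted p = 1.78e-28). Pvalb, the calcium buffer parvalbumin of fast-spiking interneurons, read 3.24 to 30.2 CPM (median 14.3) in prefrontal cortex against 0.365 to 2.78 CPM (median 1.42) in ventral striatum (log2 difference 3.07, SE 0.23, adjusted p = 2.76e-15). Sst, the somatostatin gene, was high in most prefrontal libraries but overlapped, with 23.7 to 147 CPM (median 78.8) in prefrontal cortex against 2.96 to 30.3 CPM (median 9.4) in ventral striatum (log2 difference 2.66, SE 0.24, adjusted p = 1.18e-12). Prox1 and Maf, factors of interneurons from the caudal and medial ganglionic eminences, were higher at 2.79 (SE 0.13, adjusted p = 1.77e-21) and 3.25 (SE 0.13, adjusted p = 7.37e-24). The Dlx homeobox genes, shared by interneurons and striatal projection neurons, did not move together. Dlx1 was higher in prefrontal cortex at 2.14 (SE 0.13, adjusted p = 8.59e-18), Dlx5 and Dlx6 were lower at -2.26 (SE 0.10, adjusted p = 2.50e-22) and -2.61 (SE 0.11, adjusted p = 4.80e-23), and Dlx2, at 0.01, did not pass the test. Interneuron transcripts were read in every prefrontal library, and how much of them came from cells that use the D1 promoter was not tested.

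**Figure D3:**
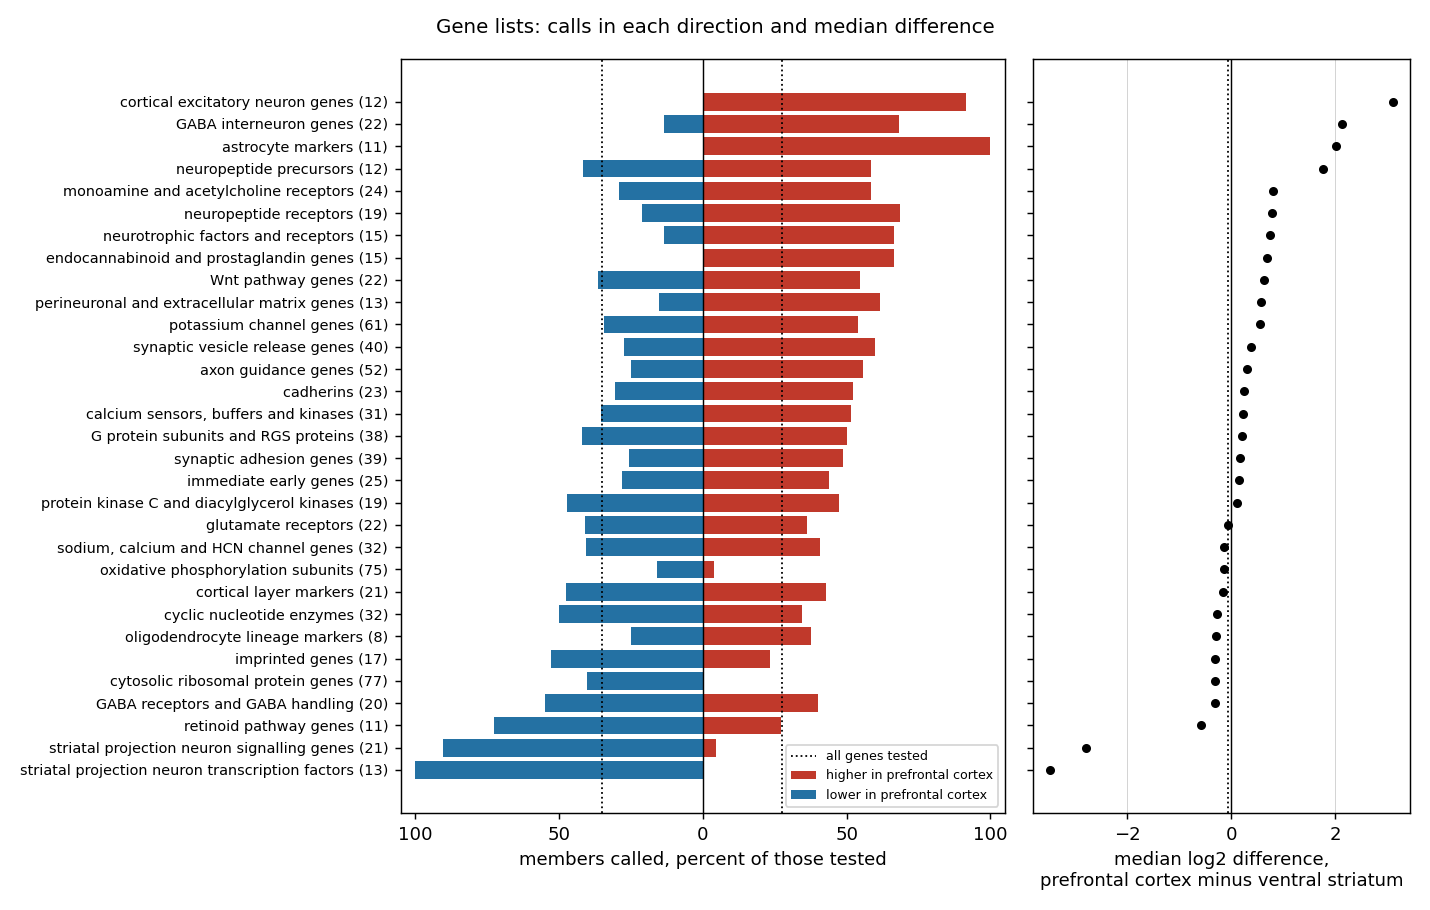
Left, the percent of tested members of each gene list that were higher (red, to the right) or lower (blue, to the left) in prefrontal cortex at an adjusted p under 0.05, with dotted lines at the shares over all genes tested (27.7% and 35.1%) and the number tested in parentheses; right, each list's median log2 difference. Lists with at least 8 tested members are drawn, and the cortical excitatory (median 3.12), interneuron (2.14) and astrocyte (2.01) lists stand at the top while the striatal signalling (-2.80) and transcription factor (-3.48) lists stand at the bottom.

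Of the 5 dopamine receptor genes 3 passed the filter, and these were lower in prefrontal cortex (0% higher and 100% lower, background 27.7% and 35.1%). Drd1a, the gene of the D1 receptor and of the promoter that tags the cells, read 9.52 to 44.8 CPM (median 16.7) in prefrontal cortex against 139 to 173 CPM (median 156) in ventral striatum (log2 difference -3.14, SE 0.14, adjusted p = 1.21e-22). The 4 prefrontal libraries highest for Six3 held 19.3 to 44.8 CPM of Drd1a and the other 15 held 9.52 to 22.6 CPM. Drd2, the receptor of the indirect pathway, read 0.209 to 2.46 CPM (median 0.964) in prefrontal cortex against 6.31 to 16.2 CPM (median 7.98) in ventral striatum (log2 difference -2.63, SE 0.16, adjusted p = 3.07e-18). Drd3, the receptor subtype of the limbic striatum, was listed at 0 reads in all 19 prefrontal libraries and at 2.79 ± 0.87 CPM (SD, n = 15) in ventral striatum, which makes it at least 39.4-fold lower when each prefrontal library is given a floor of 3 reads. It thus passed the filter through ventral striatum alone. Drd4 and Drd5 did not pass the filter. Drd5, a D1-like receptor subtype, lay the other way at a low level, with 0.561 to 2.14 CPM (median 1.25) in prefrontal cortex and 0 to 0.468 CPM (median 0.135) in ventral striatum. Without the filter, where 22.7% of all genes were higher and 24.4% lower, 1 of the 5 receptor genes was higher and 3 were lower.

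Of 11 G protein alpha subunit genes tested 8 were higher and 2 lower (72.7% higher and 18.2% lower, background 27.7% and 35.1%). Gnal, which encodes the olfactory-type stimulatory alpha subunit used by striatal D1 receptors, read 86.2 to 259 CPM (median 147) in prefrontal cortex against 462 to 994 CPM (median 583) in ventral striatum (log2 difference -2.02, SE 0.13, adjusted p = 3.62e-17). Gnas, which encodes the widespread stimulatory alpha subunit, read 669 to 1311 CPM (median 880.1) in prefrontal cortex against 163 to 286 CPM (median 228) in ventral striatum (log2 difference 1.97, SE 0.08, adjusted p = 1.49e-23). The 2 genes lay on opposite sides with no overlap. Of the gamma subunits, Gng7, the partner of the olfactory-type protein in the striatum, read 7.89 to 64.7 CPM (median 15) in prefrontal cortex against 314 to 564 CPM (median 384) in ventral striatum (log2 difference -4.42, SE 0.19, adjusted p = 9.78e-23), and Gng2 read 224 to 453 CPM (median 302) in prefrontal cortex against 35.4 to 81.9 CPM (median 60) in ventral striatum (log2 difference 2.40, SE 0.09, adjusted p = 2.41e-24). Of 10 cyclase genes 5 were higher and 4 lower (50% higher and 40% lower, background 27.7% and 35.1%). Adcy5, the main striatal adenylyl cyclase, read 14.6 to 34.5 CPM (median 20.9) in prefrontal cortex against 98.5 to 224 CPM (median 152) in ventral striatum (log2 difference -2.82, SE 0.11, adjusted p = 7.37e-24). Adcy1, a cyclase stimulated by calcium and calmodulin, read 84.1 to 168 CPM (median 127) in prefrontal cortex against 13.2 to 28.4 CPM (median 20.1) in ventral striatum (log2 difference 2.58, SE 0.08, adjusted p = 8.27e-27). Adcy2 and Adcy8 were also higher in prefrontal cortex, at 1.70 (SE 0.08, adjusted p = 2.95e-21) and 1.35 (SE 0.14, adjusted p = 9.06e-11).

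Phosphodiesterases, which degrade cyclic nucleotides, were mostly lower in prefrontal cortex: 10 of 16 tested, against 4 higher (25% higher and 62.5% lower, background 27.7% and 35.1%). Pde10a, the dual-specificity enzyme of medium spiny neurons, read 17.3 to 151 CPM (median 32.5) in prefrontal cortex against 476 to 744 CPM (median 542) in ventral striatum (log2 difference -3.75, SE 0.20, adjusted p = 4.99e-20). Pde1c, an enzyme activated by calcium and calmodulin, read 1.76 to 8.61 CPM (median 2.79) in prefrontal cortex against 36.3 to 61 CPM (median 43.3) in ventral striatum (log2 difference -3.66, SE 0.15, adjusted p = 5.23e-24), and its relative Pde1b was lower at -3.12 (SE 0.10, adjusted p = 8.60e-27). Pde5a, which is specific for cyclic GMP, was the one phosphodiesterase higher by at least 2-fold, with 5.21 to 12.1 CPM (median 7.62) in prefrontal cortex against 0.0962 to 1.07 CPM (median 0.418) in ventral striatum (log2 difference 3.14, SE 0.13, adjusted p = 6.73e-24). Downstream, Prkar2b, a regulatory subunit of protein kinase A, was lower at -1.62 (SE 0.08, adjusted p = 3.58e-21), and the catalytic subunit genes Prkaca and Prkacb differed in opposite directions by 0.36 and -0.53. Without the 4 prefrontal libraries highest for Six3 the difference of Prkaca, 0.22, no longer passed the test (adjusted p = 0.151). Ppp1r1b read 12.1 to 139 CPM (median 24.8) in prefrontal cortex against 639 to 798 CPM (median 700.0) in ventral striatum (log2 difference -4.56, SE 0.23, adjusted p = 6.19e-21). Arpp21, another target of protein kinase A, was lower at -2.80 (SE 0.09, adjusted p = 1.97e-26).

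**Figure D4:**
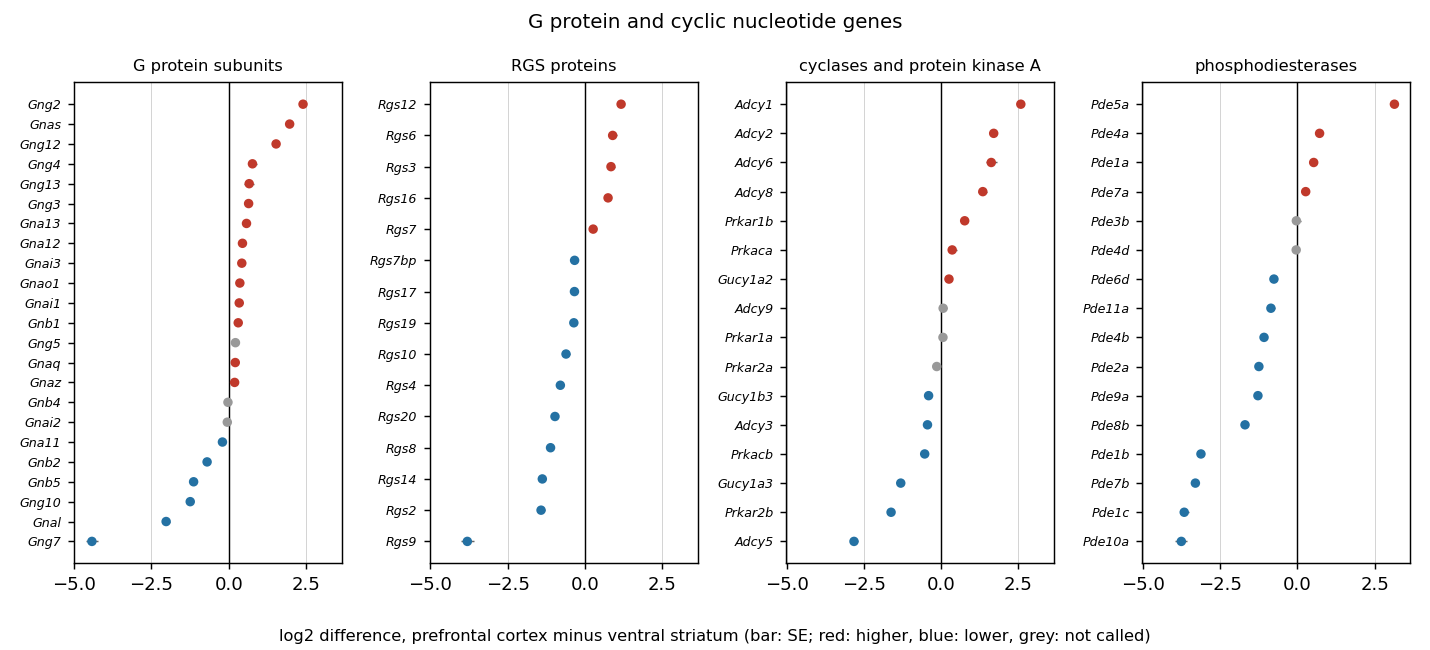
Log2 difference, prefrontal cortex minus ventral striatum, of every tested G protein subunit, RGS protein, cyclase, protein kinase A and phosphodiesterase gene, with bars for the SE; red points were higher, blue points lower and grey points not called at an adjusted p under 0.05. Each family spans both sides: Gng2, Gnas, Adcy1 and Pde5a lie to the right, and Gng7, Gnal, Rgs9, Adcy5 and Pde10a to the left.

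Counting the cAMP members above, 19 of 21 striatal signalling genes tested were lower (4.76% higher and 90.5% lower, background 27.7% and 35.1%). Each of the 19 was lower by at least 2-fold (background 5.62% lower), with a median over the list of -2.80. Rgs9, a regulator of G protein signalling that shortens dopamine receptor signals, read 1.56 to 20.2 CPM (median 3.76) in prefrontal cortex against 49 to 75.4 CPM (median 68.7) in ventral striatum (log2 difference -3.80, SE 0.21, adjusted p = 3.77e-19). Ptpn5, the striatum-enriched phosphatase STEP, and Rasd2, the small GTPase Rhes, were lower at -2.88 (SE 0.10, adjusted p = 1.07e-25) and -2.64 (SE 0.16, adjusted p = 3.09e-18). Adora2a, the adenosine receptor of the indirect pathway, read 0 to 0.793 CPM (median 0.232) in prefrontal cortex against 5.29 to 11.8 CPM (median 7.8) in ventral striatum (log2 difference -3.55, SE 0.12, adjusted p = 2.51e-26). The one gene of the list that was higher in prefrontal cortex was Cnr1, the cannabinoid receptor, described with its pathway, and Itpr1, at -0.09, did not pass the test.

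The precursors of neuropeptides included genes high in either region. Of 24 listed, 12 were tested, 7 higher in prefrontal cortex (Vip, Cck, Npy, Sst, Tac2, Adcyap1 and Pnoc) and 5 lower (Pdyn, Tac1, Cartpt, Nts and Penk). These are 58.3% higher and 41.7% lower, background 27.7% and 35.1%. Among these 12 Sst overlapped between the regions. Nts, Adcyap1 and Pnoc passed the filter through 1 region alone, staying below 1 CPM in every library of the other. Without the filter, where 22.7% of all genes were higher and 24.4% lower, 23 precursors were tested, 12 higher and 7 lower, and their median log2 difference was 0.40 in place of 1.77. Promoters were available for 10 of the 12 in RefSeq's table (GRCm38.p6), each covering 250 bases before the annotated start and 50 after it. They were searched on both strands for the cAMP response element in its full palindromic form, TGACGTCA, which 588 of all 32851 promoters of the same length in that table hold (1.79%). It was found in 2 of the 10, Sst on the prefrontal side and Cartpt on the striatal side. The 2 promoters are printed to show that the same element, in capitals, occurs in a peptide gene from each side. Sst lies on the minus strand at chr16:23890795-23891094 with the element beginning at position -48 from the start, and Cartpt on the minus strand at chr13:99900634-99900933 with the element at -112.
Sst: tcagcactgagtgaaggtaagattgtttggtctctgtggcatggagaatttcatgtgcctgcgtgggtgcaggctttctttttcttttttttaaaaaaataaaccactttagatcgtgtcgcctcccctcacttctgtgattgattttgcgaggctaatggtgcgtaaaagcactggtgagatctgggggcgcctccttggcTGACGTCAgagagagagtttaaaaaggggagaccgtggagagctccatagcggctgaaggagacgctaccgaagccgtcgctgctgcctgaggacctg
Cartpt: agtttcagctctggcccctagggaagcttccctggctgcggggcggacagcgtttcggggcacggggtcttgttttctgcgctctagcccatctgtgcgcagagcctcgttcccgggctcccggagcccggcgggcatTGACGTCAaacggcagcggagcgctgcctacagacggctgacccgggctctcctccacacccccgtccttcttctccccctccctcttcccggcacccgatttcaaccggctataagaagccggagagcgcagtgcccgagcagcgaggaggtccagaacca
A match to these letters is a description of the sequence, and binding was not measured.

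On the prefrontal side, Npy, the neuropeptide Y gene, read 11.1 to 37.9 CPM (median 21) in prefrontal cortex against 0.725 to 2.5 CPM (median 1.6) in ventral striatum (log2 difference 3.40, SE 0.14, adjusted p = 1.11e-23). Tac2, the neurokinin B gene, read 12.5 to 32.9 CPM (median 16.5) in prefrontal cortex against 1.48 to 4.64 CPM (median 2.38) in ventral striatum (log2 difference 2.63, SE 0.14, adjusted p = 1.91e-20). Adcyap1, the gene of the peptide PACAP, was sparse on both sides but did not overlap, with 0.772 to 3.42 CPM (median 1.95) in prefrontal cortex against 0.0175 to 0.409 CPM (median 0.0975) in ventral striatum (log2 difference 1.85, SE 0.13, adjusted p = 1.33e-16). Pnoc, the nociceptin precursor, was higher at 1.69 (SE 0.12, adjusted p = 2.84e-16), while the dynorphin and enkephalin genes were lower.

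On the striatal side, Pdyn, the dynorphin precursor of the direct pathway, read 0.581 to 7.16 CPM (median 2.0) in prefrontal cortex against 54.6 to 101 CPM (median 71) in ventral striatum (log2 difference -4.92, SE 0.19, adjusted p = 9.72e-25). Tac1, the substance P precursor, read 2.71 to 20.9 CPM (median 5.72) in prefrontal cortex against 101 to 224 CPM (median 128) in ventral striatum (log2 difference -4.13, SE 0.20, adjusted p = 4.69e-21). Penk, the enkephalin precursor better known in the indirect pathway, read 11.3 to 32.4 CPM (median 17.1) in prefrontal cortex against 82.8 to 218 CPM (median 112) in ventral striatum (log2 difference -2.67, SE 0.14, adjusted p = 2.28e-20). Cartpt, the gene of the cocaine- and amphetamine-regulated transcript, read 0.114 to 1.59 CPM (median 0.814) in prefrontal cortex against 9.71 to 29.6 CPM (median 22.4) in ventral striatum (log2 difference -4.04, SE 0.15, adjusted p = 5.62e-25). Nts, the neurotensin gene, had a median of 7.04 CPM in ventral striatum and at most 0.276 CPM in prefrontal cortex, and the log2 difference was -3.81 (SE 0.12, adjusted p = 1.87e-27). Dorsal striatum libraries were compared with the same 15 ventral striatum libraries in a separate fit, so the 2 comparisons share them. The dorsal minus ventral log2 difference was -3.99 (SE 0.25, adjusted p = 3.61e-15) for Cartpt and -2.97 (SE 0.23, adjusted p = 9.67e-13) for Nts. Tac1 differed the other way, by 0.35 (SE 0.13, adjusted p = 0.0313).

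**Figure D5:**
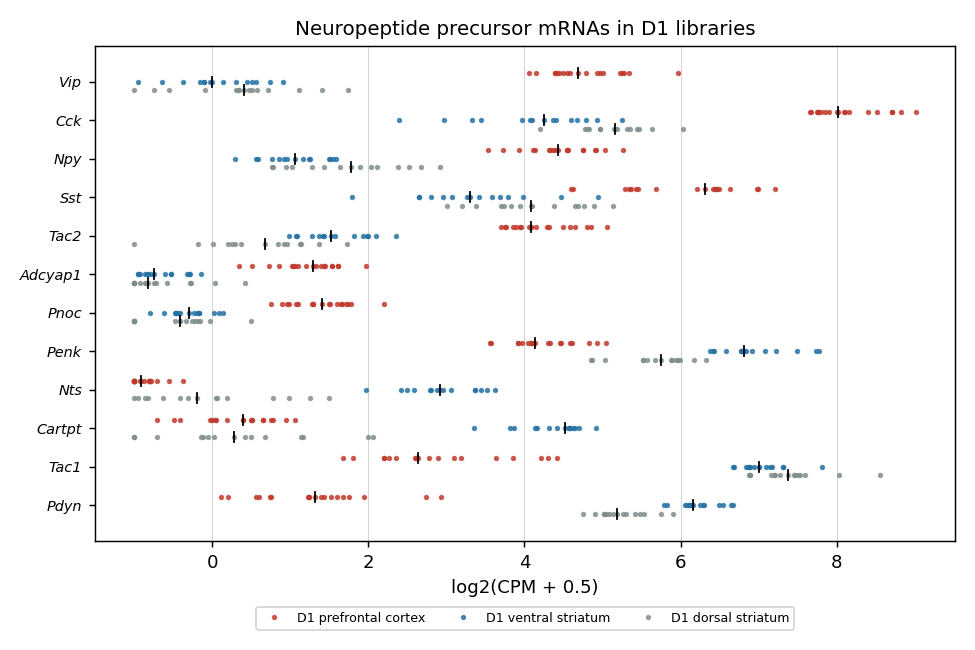
Level per library on the log2(CPM + 0.5) scale of the 12 tested neuropeptide precursor genes in D1 neurons of prefrontal cortex (n = 19), ventral striatum (n = 15) and dorsal striatum (n = 15), one point per library, with black ticks at the group medians. The 7 genes from Vip to Pnoc are higher in prefrontal cortex than in ventral striatum and the 5 from Penk to Pdyn lower, and the dorsal striatum medians of Nts and Cartpt lie near the prefrontal ones.

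Of 19 neuropeptide receptor genes that passed the filter 13 were higher in prefrontal cortex and 4 lower (68.4% higher and 21.1% lower, background 27.7% and 35.1%). Without the filter 31 were tested, 15 higher and 11 lower (background 22.7% and 24.4%), and the median log2 difference was 0.09 in place of 0.78. Sstr3, a somatostatin receptor of neuronal cilia, read 7.0 to 14.7 CPM (median 9.76) in prefrontal cortex against 0.549 to 2.34 CPM (median 1.46) in ventral striatum (log2 difference 2.48, SE 0.12, adjusted p = 8.53e-21). Rxfp1, a relaxin receptor, and Cckbr, the brain cholecystokinin receptor, were higher at 2.74 (SE 0.13, adjusted p = 2.77e-21) and 1.80 (SE 0.09, adjusted p = 2.74e-20). The opioid receptors differed from one another. Oprd1, the delta receptor, read 5.3 to 12.3 CPM (median 8.85) in prefrontal cortex against 0.472 to 2.88 CPM (median 1.45) in ventral striatum (log2 difference 2.14, SE 0.14, adjusted p = 5.75e-17). Oprm1, the mu receptor, read 1.33 to 5.44 CPM (median 3.15) in prefrontal cortex against 6.42 to 10.8 CPM (median 7.9) in ventral striatum (log2 difference -1.25, SE 0.11, adjusted p = 2.29e-13), and Oprk1, the kappa receptor for dynorphin, was lower by less at -0.52 (SE 0.17, adjusted p = 0.00846). The calcitonin receptor gene Calcr was listed at 0 reads in all 19 prefrontal libraries and at 0.65 ± 0.64 CPM (SD, n = 15) in ventral striatum. Its mean was at least 9.14-fold lower against the floor of 3 reads per library, but Calcr did not pass the filter and was not tested.

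Of 9 serotonin receptor genes tested 4 were higher in prefrontal cortex and 5 lower (44.4% higher and 55.6% lower, background 27.7% and 35.1%). On the prefrontal side, beside Htr3a, lay Htr2a, the excitatory receptor that hallucinogens act on, with 13.5 to 20.4 CPM (median 16.1) in prefrontal cortex against 5.47 to 8.65 CPM (median 7.02) in ventral striatum (log2 difference 1.24, SE 0.07, adjusted p = 2.44e-18), and Htr1a, an inhibitory receptor, at 1.57 (SE 0.14, adjusted p = 1.35e-12). On the striatal side Htr2c read 2.56 to 7.7 CPM (median 4.5) in prefrontal cortex against 14.4 to 34.9 CPM (median 21.2) in ventral striatum (log2 difference -2.21, SE 0.11, adjusted p = 1.37e-20). The inhibitory receptors Htr1d and Htr1b were lower in prefrontal cortex at -3.20 (SE 0.14, adjusted p = 6.55e-23) and -2.37 (SE 0.13, adjusted p = 4.74e-20), and Htr4, which couples to stimulatory G proteins, at -2.07 (SE 0.12, adjusted p = 2.50e-19). The regions did not overlap for 8 of the 9 serotonin receptors tested (12.6% over all genes).

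Adrenergic and histamine receptors were higher in prefrontal cortex in 6 of 8 cases (75% higher and 12.5% lower, background 27.7% and 35.1%). Adra1b, an adrenergic receptor coupled to phospholipase C, read 8.0 to 18.1 CPM (median 11.2) in prefrontal cortex against 0.0577 to 0.98 CPM (median 0.45) in ventral striatum (log2 difference 3.69, SE 0.14, adjusted p = 3.97e-25). The exception past the test was Adra2c, an inhibitory adrenergic receptor, which read 1.87 to 6.95 CPM (median 3.72) in prefrontal cortex against 6.73 to 15.6 CPM (median 10.4) in ventral striatum (log2 difference -1.41, SE 0.13, adjusted p = 1.17e-12). Of the muscarinic acetylcholine receptors, Chrm3 and Chrm2 were higher in prefrontal cortex at 2.17 (SE 0.14, adjusted p = 7.72e-17) and 2.06 (SE 0.12, adjusted p = 6.44e-19), Chrm4, the inhibitory receptor of the direct pathway, was lower at -1.70 (SE 0.10, adjusted p = 8.21e-19), and Chrm1, at 0.09, did not pass the test. Chrm5 was listed at 0 reads in all 19 prefrontal libraries and at 0.89 ± 0.34 CPM (SD, n = 15) in ventral striatum. Its mean was at least 12.6-fold lower against the same floor, but Chrm5 did not pass the filter and was not tested. Chrna4, a nicotinic subunit, was higher at 1.77 (SE 0.13, adjusted p = 4.89e-16).

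Genes of endocannabinoid and prostaglandin metabolism were higher or did not pass the test: 10 of 15 tested were higher and 0 lower (66.7% higher and 0% lower, background 27.7% and 35.1%). The 2 parts differed. Of 8 endocannabinoid genes 7 were higher (87.5%), with a median log2 difference of 0.75. Of 7 prostaglandin genes 3 were higher (42.9%) and 4 did not pass the test, with a median of 0.13. Cnr1 read 92.4 to 185 CPM (median 120.1) in prefrontal cortex against 15.3 to 34.3 CPM (median 21.9) in ventral striatum (log2 difference 2.56, SE 0.10, adjusted p = 1.26e-24), with no overlap. Dorsal striatum, at 86.3 to 182 CPM (median 127), lay close to the prefrontal level, and its excess over ventral striatum was 2.57 (SE 0.11, adjusted p = 6.05e-19) on the log2 scale. Faah and Napepld, enzymes that degrade and make anandamide, were higher at 2.04 (SE 0.11, adjusted p = 3.40e-20) and 1.35 (SE 0.09, adjusted p = 1.30e-16). Ptgs2, the inducible cyclooxygenase, was higher at 1.89 (SE 0.12, adjusted p = 5.20e-18).

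Of 22 glutamate receptor genes tested 8 were higher and 9 lower (36.4% higher and 40.9% lower, background 27.7% and 35.1%). The metabotropic subtypes held the extremes on both sides. Grm2, a presynaptic inhibitory subtype, read 2.63 to 9.79 CPM (median 6.48) in prefrontal cortex against 0.154 to 1.8 CPM (median 0.78) in ventral striatum (log2 difference 2.28, SE 0.16, adjusted p = 2.35e-16), and Grm8 was higher at 2.48 (SE 0.11, adjusted p = 4.12e-23). Grm4 and Grm5 were lower, at -1.90 (SE 0.16, adjusted p = 4.46e-14) and -1.12 (SE 0.10, adjusted p = 3.91e-13). Grm5, which couples to phospholipase C, read 18.7 to 42.6 CPM (median 28) in prefrontal cortex and 44.1 to 101 CPM (median 60) in ventral striatum. Among kainate receptor subunits Grik3 was higher at 1.70 (SE 0.15, adjusted p = 6.20e-13) and Grik2 lower at -1.35 (SE 0.09, adjusted p = 1.29e-16). No NMDA receptor subunit differed by 2-fold in either direction, and Grin1, the obligatory subunit, had a log2 difference of 0.07 that did not pass the test.

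Genes for making and moving GABA were lower in prefrontal cortex in 4 of 6 cases and higher in 2 (33.3% higher and 66.7% lower, background 27.7% and 35.1%). Gad2, one of the synthesizing enzymes, read 124 to 402 CPM (median 204) in prefrontal cortex against 747 to 1020.1 CPM (median 916) in ventral striatum (log2 difference -2.20, SE 0.10, adjusted p = 7.56e-22). Slc32a1, the vesicular GABA transporter, read 9.27 to 21.5 CPM (median 13) in prefrontal cortex against 30.5 to 53.4 CPM (median 42.8) in ventral striatum (log2 difference -1.56, SE 0.11, adjusted p = 1.26e-16), and Abat, the degrading enzyme, was lower at -1.62 (SE 0.07, adjusted p = 1.45e-23). Slc6a11, a GABA transporter found on astrocytes, was higher at 1.66 (SE 0.16, adjusted p = 3.25e-12), as the astrocyte markers were. Among receptor subunits, Gabra3 was higher at 1.72 (SE 0.09, adjusted p = 7.09e-21), and Gabrg1 and the extrasynaptic subunit gene Gabrd were lower at -1.63 (SE 0.14, adjusted p = 8.93e-14) and -1.35 (SE 0.17, adjusted p = 5.03e-09). Gabbr2, a subunit of the GABA-B receptor, read 106 to 219 CPM (median 141) in prefrontal cortex against 15.8 to 36 CPM (median 25.6) in ventral striatum (log2 difference 2.46, SE 0.10, adjusted p = 1.29e-23), whereas its partner Gabbr1 was lower by a smaller amount at -0.30 (SE 0.09, adjusted p = 0.00336).

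Potassium channel genes were the most numerous of the ion channels tested, and 33 of 61 were higher in prefrontal cortex and 21 lower (54.1% higher and 34.4% lower, background 27.7% and 35.1%). Kcnj6 and Kcnj3, which encode inward rectifiers opened by G proteins, were higher, with 8.27 to 25.5 CPM (median 13.7) in prefrontal cortex against 0.603 to 2.83 CPM (median 1.9) in ventral striatum (log2 difference 2.79, SE 0.14, adjusted p = 1.43e-20) for Kcnj6 and 2.21 (SE 0.12, adjusted p = 2.81e-19) for Kcnj3. Kcnc2, a subunit of the fast-deactivating Kv3 channels, read 15.8 to 31.2 CPM (median 25.5) in prefrontal cortex against 1.91 to 4.59 CPM (median 3.26) in ventral striatum (log2 difference 2.70, SE 0.10, adjusted p = 1.96e-25). Kcnj2, an inward rectifier of the kind that holds medium spiny neurons at negative potentials, lay on the striatal side with 4.0 to 11.4 CPM (median 6.65) in prefrontal cortex against 15.6 to 35.6 CPM (median 22.5) in ventral striatum (log2 difference -1.72, SE 0.14, adjusted p = 2.56e-14). Kcna4, Kcnd2 and the accessory subunit gene Kcnip2, which belong to A-type channels, were lower at -2.02 (SE 0.14, adjusted p = 1.69e-16), -1.04 (SE 0.09, adjusted p = 3.00e-13) and -2.16 (SE 0.10, adjusted p = 1.63e-22). Kcna5 was lower at -2.94 (SE 0.15, adjusted p = 1.07e-20).

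Of 32 sodium, calcium and HCN channel genes 13 were higher and 13 lower (40.6% higher and 40.6% lower, background 27.7% and 35.1%). The beta subunit gene Scn4b, associated with resurgent sodium current, read 4.4 to 21.7 CPM (median 7.16) in prefrontal cortex against 52.7 to 111 CPM (median 82.3) in ventral striatum (log2 difference -3.16, SE 0.16, adjusted p = 4.54e-21). Of the low-threshold calcium channels, Cacna1g was higher at 2.42 (SE 0.13, adjusted p = 1.32e-19) and Cacna1h was lower at -1.56 (SE 0.10, adjusted p = 5.37e-18).

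Of 31 genes for calcium sensors, buffers and kinases 16 were higher and 11 lower (51.6% higher and 35.5% lower, background 27.7% and 35.1%). Ncald, the neuronal calcium sensor neurocalcin delta, read 177 to 449 CPM (median 340.4) in prefrontal cortex against 21.7 to 71 CPM (median 49.1) in ventral striatum (log2 difference 2.88, SE 0.14, adjusted p = 2.87e-21), while Hpca, its relative hippocalcin, read 254 to 582 CPM (median 429.8) in prefrontal cortex against 835 to 1199 CPM (median 986) in ventral striatum (log2 difference -1.22, SE 0.08, adjusted p = 1.03e-16). The EF-hand genes Necab3 and Necab2 were higher and lower at 2.66 (SE 0.15, adjusted p = 7.24e-19) and -2.77 (SE 0.09, adjusted p = 4.18e-27). Of the calmodulin kinase II genes, Camk2g and Camk2a were higher at 1.40 and 0.54, and Camk2b was lower at -1.01, on the log2 scale. In the protein kinase C and diacylglycerol kinase list Dgkk and Dgkb joined Prkch on the striatal side at -3.70 (SE 0.14, adjusted p = 2.75e-24) and -1.56 (SE 0.08, adjusted p = 4.27e-21), and Dgkz lay on the prefrontal side at 1.12 (SE 0.09, adjusted p = 2.82e-14).

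Genes for growth factors and their receptors were mostly higher in prefrontal cortex, led by Bdnf, the brain-derived neurotrophic factor gene. It read 8.02 to 15.9 CPM (median 11.4) in prefrontal cortex against 0.21 to 1.74 CPM (median 0.68) in ventral striatum (log2 difference 3.26, SE 0.12, adjusted p = 5.01e-25). Igf1, insulin-like growth factor 1, read 6.32 to 16.7 CPM (median 9.67) in prefrontal cortex against 0.129 to 1.1 CPM (median 0.737) in ventral striatum (log2 difference 3.23, SE 0.12, adjusted p = 1.99e-24), and Gfra2, a receptor for neurturin, read 41.9 to 128 CPM (median 58.6) in prefrontal cortex against 5.1 to 10.8 CPM (median 6.86) in ventral striatum (log2 difference 3.06, SE 0.12, adjusted p = 6.12e-24). On this list 10 of 15 tested were higher and 2 lower (66.7% higher and 13.3% lower, background 27.7% and 35.1%), among the latter Gfra1 at -0.69 (SE 0.14, adjusted p = 6.79e-05). Bdnf is also an immediate early gene, a class with 11 higher and 7 lower of 25 (44% higher and 28% lower, background 27.7% and 35.1%). Fos and Arc were higher at 1.10 (SE 0.17, adjusted p = 3.19e-07) and 1.03 (SE 0.11, adjusted p = 7.92e-11) with overlap between regions, Fosb and Junb were lower at -0.87 (SE 0.12, adjusted p = 8.60e-08) and -0.76 (SE 0.12, adjusted p = 3.66e-07), and Egr1 and Npas4 did not pass the test at 0.07 and 0.05.

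Of 14 secreted modulators of Wnt signalling listed 7 passed the filter, 6 higher and 1 lower in prefrontal cortex (85.7% higher and 14.3% lower, background 27.7% and 35.1%). Over the whole Wnt list 12 were higher and 8 lower of 22 (54.5% higher and 36.4% lower, background 27.7% and 35.1%). With a filter of 5 CPM 3 were higher and 3 lower of 8, where 26.6% of all genes were higher and 37.8% lower. Dkk3, a Dickkopf family member, read 92 to 255 CPM (median 148) in prefrontal cortex against 2.34 to 9.46 CPM (median 5.56) in ventral striatum (log2 difference 4.66, SE 0.16, adjusted p = 2.40e-26). Rspo2, an R-spondin that enhances Wnt signals and passed the filter through prefrontal cortex alone, read 4.6 to 15.3 CPM (median 7.47) in prefrontal cortex against 0 to 0.804 CPM (median 0.30) in ventral striatum (log2 difference 3.45, SE 0.15, adjusted p = 5.85e-23), and Frzb, a secreted antagonist, was higher at 2.36 (SE 0.14, adjusted p = 1.32e-18). Of the ligands 5 of 7 tested were higher and 2 lower (71.4% higher and 28.6% lower, background 27.7% and 35.1%). Wnt7b was higher at 2.57 (SE 0.16, adjusted p = 8.75e-18) and Wnt7a lower at -1.67 (SE 0.16, adjusted p = 2.83e-12). Tcf7l2, a transcriptional effector, was lower at -1.91 (SE 0.15, adjusted p = 3.20e-14). Of the receptors 4 of 5 tested were lower and 1 higher (20% higher and 80% lower, background 27.7% and 35.1%).

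Axon guidance genes were higher in 29 and lower in 13 of 52 cases (55.8% higher and 25% lower, background 27.7% and 35.1%). Ntn1, which encodes the guidance cue netrin-1, read 0 to 1.24 CPM (median 0.393) in prefrontal cortex against 5.54 to 11.1 CPM (median 7.84) in ventral striatum (log2 difference -3.30, SE 0.15, adjusted p = 1.14e-22), and its receptor gene Dcc was lower at -1.19 (SE 0.10, adjusted p = 1.13e-13). For Ntn1 the dorsal minus ventral log2 difference was -2.54 (SE 0.13, adjusted p = 6.01e-17). Sema3c, a secreted semaphorin, read 3.82 to 9.55 CPM (median 6.35) in prefrontal cortex against 0.272 to 1.6 CPM (median 0.714) in ventral striatum (log2 difference 2.42, SE 0.13, adjusted p = 1.14e-19), and Sema7a, a membrane-anchored one, was higher at 1.82 (SE 0.10, adjusted p = 9.33e-20). Of the plexin receptor genes, Plxna1 was higher at 1.65 (SE 0.09, adjusted p = 7.05e-20) and Plxnd1 lower at -1.39 (SE 0.16, adjusted p = 6.31e-10). The ephrin gene Efnb3 and the Eph receptor gene Ephb1 were lower at -1.79 (SE 0.11, adjusted p = 2.20e-17) and -1.75 (SE 0.13, adjusted p = 2.57e-15).

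Of 39 synaptic adhesion genes 19 were higher and 10 lower (48.7% higher and 25.6% lower, background 27.7% and 35.1%). Cbln2, a secreted organizer that links neurexins to postsynaptic receptors, read 13 to 24.4 CPM (median 18) in prefrontal cortex against 0.28 to 1.92 CPM (median 1.07) in ventral striatum (log2 difference 3.63, SE 0.12, adjusted p = 4.07e-26). Ptprd, a presynaptic receptor phosphatase, was higher at 1.61 (SE 0.09, adjusted p = 7.07e-19), and Cntnap2 and Lrrtm3, of the neurexin-related and leucine-rich repeat families, were lower at -1.25 (SE 0.08, adjusted p = 3.92e-17) and -1.35 (SE 0.09, adjusted p = 5.05e-17). Of the cadherins 12 were higher and 7 lower of 23 (52.2% higher and 30.4% lower, background 27.7% and 35.1%), with Cdh12 at 1.64 (SE 0.11, adjusted p = 2.41e-16) and Cdh7 at -1.34 (SE 0.12, adjusted p = 1.41e-12). Of 13 genes of the extracellular matrix 8 were higher and 2 lower (61.5% higher and 15.4% lower, background 27.7% and 35.1%). Hapln4, a link protein of perineuronal nets, read 16.2 to 37.9 CPM (median 29.1) in prefrontal cortex against 2.69 to 6.59 CPM (median 5.61) in ventral striatum (log2 difference 2.40, SE 0.11, adjusted p = 1.94e-22). Sparcl1, a matricellular protein that astrocytes also make, was higher at 2.49 (SE 0.11, adjusted p = 1.44e-22).

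Imprinted genes included some of the greatest deficits in prefrontal cortex. Of 17 tested 9 were lower and 4 higher (23.5% higher and 52.9% lower, background 27.7% and 35.1%). Peg10, a paternally expressed gene derived from a retrotransposon, read 7.81 to 13.6 CPM (median 9.63) in prefrontal cortex against 94.3 to 296 CPM (median 141) in ventral striatum (log2 difference -3.88, SE 0.12, adjusted p = 5.85e-28). Usp29, a paternally expressed gene of the Peg3 domain, read 14.2 to 22.8 CPM (median 19.1) in prefrontal cortex against 34.9 to 52.7 CPM (median 42.1) in ventral striatum (log2 difference -1.24, SE 0.07, adjusted p = 4.72e-19). Dlk1, Peg10 and Usp29 were also lower in dorsal than in ventral striatum, with dorsal minus ventral log2 differences of -3.85 (SE 0.20, adjusted p = 5.70e-17), -3.23 (SE 0.14, adjusted p = 6.05e-19) and -0.95 (SE 0.08, adjusted p = 1.79e-11). Meg3, a noncoding RNA from the same imprinted domain as Dlk1 but expressed from the other parental chromosome, was higher in prefrontal cortex at 1.65 (SE 0.34, adjusted p = 6.33e-05), with wide overlap between libraries.

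In the release machinery 24 of 40 genes were higher in prefrontal cortex and 11 lower (60% higher and 27.5% lower, background 27.7% and 35.1%). Snap25, a core protein of vesicle fusion, read 5554 to 12045 CPM (median 8727) in prefrontal cortex against 2911 to 5473 CPM (median 3921) in ventral striatum (log2 difference 1.13, SE 0.11, adjusted p = 4.00e-12). After quantile normalization, which forces 1 distribution of values on all libraries, its difference was 0.05 (adjusted p = 0.408). Stx1a, its syntaxin partner, was higher at 2.16 (SE 0.11, adjusted p = 7.13e-21). The vesicle protein genes Sv2b and Sv2c had log2 differences of 1.64 (SE 0.10, adjusted p = 3.64e-18) and -3.17 (SE 0.16, adjusted p = 1.33e-20). The priming factor genes Unc13b and Unc13c differed by 1.57 (SE 0.11, adjusted p = 3.32e-16) and -3.83 (SE 0.11, adjusted p = 3.93e-28), and the latter read 2.27 to 9.49 CPM (median 3.92) in prefrontal cortex and 42.4 to 79.7 CPM (median 66.2) in ventral striatum.

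Housekeeping genes differed by small amounts. Of 75 nuclear genes for subunits of the respiratory chain and ATP synthase 60 did not pass the test, 12 were lower in prefrontal cortex and 3 higher, and none differed 2-fold (4% higher and 16% lower, background 27.7% and 35.1%). Of 77 cytosolic ribosomal protein genes 31 were lower (40.3%, background 35.1%), 0 higher and none by 2-fold, with a median log2 difference of -0.31. These counts depended on the libraries and the model. With EM libraries alone 53 ribosomal protein genes and 27 respiratory genes were lower, and without the 4 prefrontal libraries highest for Six3 23 and 9. Array weights gave 60 and 29, and the name code as a covariate 59 and 33. A replicate block over consecutive library names gave 54 and 31, against 29 and 13 in the same 26 libraries without it. Over all genes, 33.4% to 38.4% were lower in these 6 fits. Without the 4 prefrontal libraries highest for Six3, 8 respiratory genes were higher beside the 9 lower. The median log2 difference of the respiratory list was then -0.03 in place of -0.14.

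Dorsal striatum was used to place the differences along a second regional axis. In a separate fit of D1 neurons of dorsal against ventral striatum, 3918 of 11332 genes differed (34.6%), 1144 higher and 2774 lower in dorsal striatum. That split depended on the scaling, since with median-ratio scaling, which moved the median log2 difference over all genes from -0.12 to -0.01, 1663 were higher and 1642 lower. Both comparisons use the same ventral striatum libraries, so values of single genes are set side by side and no overlap of the calls is given. Six3, far lower in prefrontal cortex, did not pass the test between the striatal regions, with a dorsal minus ventral log2 difference of -0.02 (SE 0.13, adjusted p = 0.932), and neither did Gng7, at -0.02 (SE 0.10, adjusted p = 0.908). Crym and Stra6, both lower in prefrontal cortex, were also lower in dorsal than in ventral striatum, at -2.09 (SE 0.16, adjusted p = 1.55e-12) and -2.61 (SE 0.17, adjusted p = 9.14e-15).

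Some gene models overlap another on the opposite strand, and the library kit does not mark strand, so reads in the shared stretch cannot be assigned. Of the 198 genes named here 47 had such a partner, among them Six3, Ppp1r1b, Rarb, Nrn1, Gnal, Gnas, Penk, Dlx1, Dlx6, Arpp21 and Slc32a1. No such overlapping model was found for Vip, Dkk3, Cck, Dlk1, Prkch, Pdyn, Cd4, Gng7, Neurod6 or Cnr1.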

How the data were processed

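Ribosome-bound mRNA was measured in pools of mouse brain tissue. The authors deposited CPM values for 25899 gene symbols. Per the submitters' processing notes, Trim Galore 0.4.2, cutadapt 1.9.1, FastQC and HISAT2 were used with GRCm38. The counting program, the annotation and the total used for scaling are not given in the sources used here. Amplified cDNA of polyA RNA was read as 50-base pairs, per the labels' protocols. In each library all deposited values were multiples of 1 CPM step, so whole reads were recovered for 100% of values above 0 (tolerance 0.01 read).

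Groups came from the labelled region and cell type. Replicate numbers were given in accession order and are not a pairing. Whether consecutive library names mark pools of the same mice is not stated, and the main test does not pair them. Where pools shared a preparation, p-values measure only the spread between these libraries. Read counts of libraries of a group differed by more than sampling noise in each of 276 pairs (lowest ratio of chi-square to its degrees of freedom 8.24). The main test was limma 3.58.1 in R 4.3.3 (with an intensity trend in eBayes) on log2(CPM + 0.5), with only the compared groups in the fit, a filter of at least 1 CPM in at least 15 libraries, two-sided p-values and Benjamini-Hochberg adjustment over all genes tested. Log2 differences on this scale understate changes of genes with low CPM. edgeR 4.0.16 and DESeq2 1.42.0 on the recovered read counts were alternatives: edgeR called 7287 genes and DESeq2 7353. Other alternatives changed the pseudocount, filter, scaling, covariates and libraries. Scripts were tested on simulated data. Summed levels were compared by permutation (100000 resamples).

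The named genes are the 12 with the greatest difference each way whose mean reached 5 CPM in the region with more and whose adjusted p was under 0.05, and members of 35 gene lists, with 1014 entries of which 850 passed the filter. Some members of the lists are counted with their list but not reported here by name. The comparison and the lists were chosen with earlier results of these data known. Positions and promoters are RefSeq's for GRCm38.p6, and overlaps between gene models are GENCODE's for the same build. For Drd1a no overlap search was made. A GC or motif comparison between gene sets was not made, because promoters matched 78.1% of the genes tested. Reads are not independent molecules, so depth bounds counting error only.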

Additional observations from a re-analysis of the deposited data

How the results depend on the processing

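Of the 194 named genes tested, none that passed the test changed direction in any of the 18 alternatives or the 34 fits that each left out 1 library, wherever the gene was still tested. No gene called in the main analysis was called the other way. With a filter of 5 CPM, which leaves 8353 genes, 1091 genes differed at least 2-fold in place of 1664. The other alternatives gave 7103 to 9462 called genes, the latter without a filter, and 1424 (pseudocount 1) to 1953 (DESeq2) genes at 2-fold. Leaving out 1 library at a time gave 7247 to 7546 called genes and 1631 to 1683 at 2-fold. Of the named genes only Prkaca, Snap25 and Itpr1 changed side of the threshold. Itpr1 passed it after quantile normalization, at -0.14 (adjusted p = 0.0238), and Prkaca missed it without a filter (adjusted p = 0.0508) and without ventral striatum replicate 3 (0.0581) or 6 (0.0517), and in the 26 libraries of consecutive names (0.0709). The medians of the glutamate receptor, protein kinase C, G protein and RGS, oligodendrocyte, vascular and cholinergic lists changed sign between alternatives, so they have no direction. The sets without the 4 prefrontal libraries highest for Six3, and without the 5 low in Y-linked reads, were chosen after seeing the data. In the dorsal against ventral striatum fit edgeR called 3245 genes and EM libraries alone 3551. Replicate numbers name libraries in accession order and are not a pairing. Consecutive library names may mark region sets, which the labels do not state, so a replicate block over the 13 sets of names was added after seeing the data. It called 7715 genes, 1607 at least 2-fold, against 7103 and 1607 in the same 26 libraries without the block, and 54 ribosomal and 31 respiratory genes were then lower against 29 and 13. Deviations from the group means correlated over 0.1 in 8 of the 13 sets (r over genes from 0.00322 to 0.573, median 0.201). Between different sets of the same letter code r ran from -0.316 to 0.516 (median 0.0378), so the 2 ranges overlapped widely. In all, 5 prefrontal and 7 ventral libraries correlated best with their own set. In prefrontal cortex 1 read was worth 0.0145 to 0.0351 CPM, which bounds what low levels can show.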

Other observations

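Regulators of G protein signalling, which shorten the active state of G protein alpha subunits, were more often lower than higher in prefrontal cortex, 10 against 5 of 15 tested (33.3% higher and 66.7% lower, background 27.7% and 35.1%). Beside Rgs9, Rgs2 and Rgs14 were lower at log2 differences of -1.42 (SE 0.12, adjusted p = 1.50e-13) and -1.38 (SE 0.11, adjusted p = 8.12e-15), and Rgs12 was higher at 1.17 (SE 0.09, adjusted p = 1.77e-14). S100a10, the partner of annexin A2 known as p11, read 5.96 to 14.9 CPM (median 8.42) in prefrontal cortex against 1.0 to 3.84 CPM (median 1.98) in ventral striatum (log2 difference 1.88, SE 0.13, adjusted p = 1.25e-16). In dorsal striatum it read 5.69 to 19.1 CPM (median 9.85), and its dorsal minus ventral log2 difference was 2.08 (SE 0.15, adjusted p = 9.72e-14). Nrgn, the calmodulin-binding protein neurogranin, had a comparable pattern, with 138 to 287 CPM (median 222) in prefrontal cortex, 63.6 to 142 CPM (median 86.8) in ventral striatum and 187 to 414 CPM (median 326) in dorsal striatum. For Reln, which encodes the extracellular matrix protein reelin, dorsal striatum lay highest, with 3.4 to 9.94 CPM (median 7.44) in prefrontal cortex, 8.25 to 19.5 CPM (median 13.7) in ventral striatum and 27.5 to 55.5 CPM (median 42.8) in dorsal striatum.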
